A study of Mus musculus with 2 samples.

Results

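The immediate early transcription factors examined here are 10 genes, Fos, Fosb, Fosl1, Jun, Junb, Egr1, Egr2, Egr3, Ier2 and Atf3, taken by symbol from the 23889 gene symbols of the deposited expression tables. All 10 were present. They were measured by RNA sequencing in E14 cells, a mouse embryonic stem cell (mESC) line grown without feeder cells on gelatin with 15% FBS and 1000 U/ml LIF, the cytokine that keeps mESCs undifferentiated. Of the libraries, 1 came from cells given a control shRNA, which the labels list with a normal genotype, and 1 from cells given an shRNA against USP21, a deubiquitinase of Nanog. Both were harvested 3 days after transfection. The labels do not say which USP21 shRNA was used, and a knockdown leaves residual transcript. With 1 library per group no difference below has a replicate check, so every value is a description of these libraries and no p-value is given.

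Immediate early genes are transcribed within minutes of a stimulus without new protein synthesis. Growth factors act on them through ERK, which phosphorylates ETS-type cofactors of SRF (serum response factor) bound at CArG boxes, while cyclic AMP and calcium act through CREB. FOS and JUN proteins pair through leucine zippers to form AP-1, EGR proteins bind GC-rich sites through zinc fingers, and ATF3 is a stress-induced repressor of the same bZIP class. In mESCs the ERK pathway, driven by FGF4, promotes exit from self-renewal, which is the setting in which the comparison of control and USP21 shRNA libraries is of interest for these genes.

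The promoters were examined first, since these genes are known for the regulatory elements close to their start sites. RefSeq windows of GRCm38.p6, from 250 bases before to 50 bases after each annotated start, were matched for 6 of the 10 members, Fos, Fosb, Jun, Junb, Egr2 (5 starts) and Atf3. Fosl1, Egr1, Egr3 and Ier2 had no entry. The sequences before the starts of Fos, the most abundant FOS gene, and Fosb, the member with the highest log2 ratio, are shown 5′ to 3′ on the gene's strand. Capitals mark matches to the motifs searched. The Fos stretch is chr12:85473640-85473889 on the plus strand and the Fosb stretch is chr7:19310046-19310295 on the minus strand.
Fos: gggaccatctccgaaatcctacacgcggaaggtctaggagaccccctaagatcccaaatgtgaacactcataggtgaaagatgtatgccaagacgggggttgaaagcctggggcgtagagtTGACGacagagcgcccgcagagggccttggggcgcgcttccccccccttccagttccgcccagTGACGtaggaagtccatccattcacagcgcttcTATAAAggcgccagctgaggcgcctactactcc
Fosb: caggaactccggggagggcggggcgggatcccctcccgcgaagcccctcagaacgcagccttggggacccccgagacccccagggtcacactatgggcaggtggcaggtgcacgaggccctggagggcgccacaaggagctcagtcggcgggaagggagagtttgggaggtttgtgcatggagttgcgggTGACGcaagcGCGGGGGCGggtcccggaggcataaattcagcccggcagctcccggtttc

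In Fos the capitals are a pair of cyclic AMP half-sites (TGACG) and a TATA element (TATAAA) whose bases lie at -33 to -28, counted from 0 at the annotated start. In Fosb they are 1 half-site at -60 to -56 and, close behind it, 1 EGR element (GCGNGGGCG) at -50 to -42. Of the 32851 windows in the table, 5.55% held an EGR element, 13.6% a TATA element and 20.8% a half-site on either strand. Egr2 was the only one of the 6 matched members with a CArG box, the site bound by SRF, which 1.63% of all windows held. Its starts 3 to 5 share 1 box and start 2 has another, each shown in a stretch of 30 bases with the box in capitals. The first lies at chr10:67537787-67537816 and the second at chr10:67537484-67537513, both on the plus strand.
Egr2, starts 3 to 5: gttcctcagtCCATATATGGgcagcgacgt
Egr2, start 2: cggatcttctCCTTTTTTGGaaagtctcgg

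The window of Egr2 start 2 also held 3 ETS elements (CCGGAA, found in 14.9% of windows), a pair of which overlap each other. Junb had a half-site at -106 to -102 and a TATA element over its annotated start, and Atf3 had a half-site at -7 to -3. Jun and Egr2 start 1 held no match to any motif. No member window held the full cyclic AMP element TGACGTCA (1.79% of windows), whose first letters are the half-site, or the AP-1 element TGANTCA (7.81%). Matches were exact and taken on both strands, so they describe letters in these windows and not bound sites, and elements further upstream were outside the windows.

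**Figure D1:**
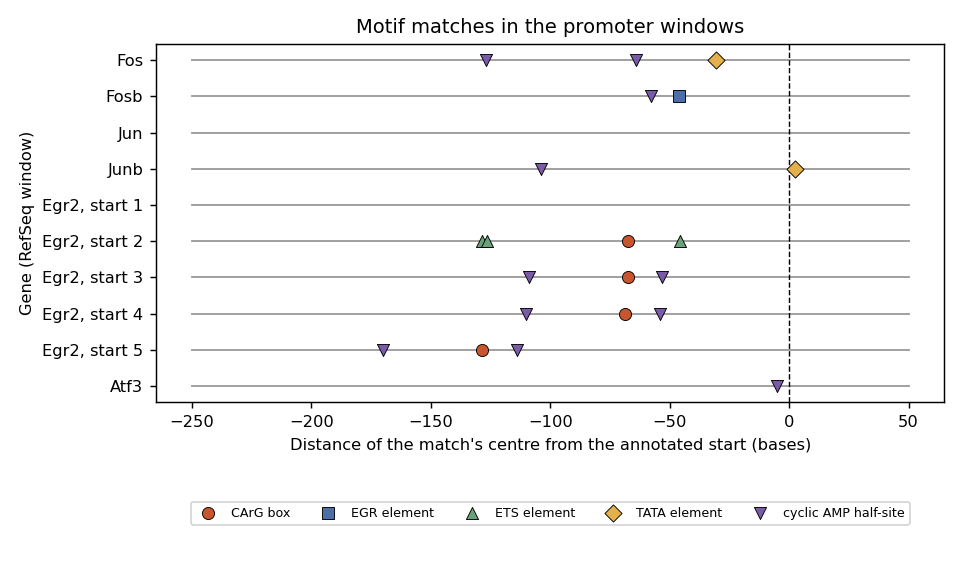
Motif matches in the promoter windows of the 6 members found in the RefSeq table, by distance of the match's centre from the annotated start (x axis, bases). Each line is 1 window from 250 bases before to 50 after a start, and symbols mark motif types. CArG boxes appear in Egr2 windows alone, and the EGR element of Fosb sits next to its half-site.

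The members also share a compact gene structure that the choice of genes did not use. By GENCODE M21 the reference transcripts of all 10 had 4 exons or fewer, against 25.3% of the genes past the expression filter (FPKM, a count of fragments scaled to transcript length and library depth, of at least 0.1 in at least 1 library). Jun, Junb and Ier2 had 1 exon, against 3.63% of those genes. The median member had 1287 bases of intron in all, against 16845 among genes past the filter, while the median transcript length was similar (2537 against 2823 bases). Atf3 had the most intron sequence of the members, 11061 bases. Members shared at most 0.588% of their 31-base words with the transcripts of other annotated genes (Egr3), each read in its sense direction. Reverse-strand words and unannotated copies in the genome were not searched, so reads from such copies are not covered by this value. Fosl1 shares 1163 exonic bases with Ccdc85b on the opposite strand (FPKM 4.66 with the control and 3.45 with the USP21 shRNA), and since no strand setting is given, reads of this stretch cannot be told apart.

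The libraries were checked on Usp21 itself, at an FPKM of 26.2 in the control library and 3.49 in the other, a 7.51-fold difference. FPKM summed to 613617 and 543206. The files hold no counts, but low values move in steps of 1 fragment, and the most common step put the control library at 1.23 times the depth of the other. From the step size and the annotated lengths, depth was about 30500000 fragments for the control and 25500000 for the other. Differences are given as the log2 ratio of the USP21 shRNA value to the control value after 0.1 was added to each, a scale on which changes of low genes look smaller than they are. The log2 ratio had a median of 0.0046 over the 15316 genes past the filter. Rescaling the libraries to equal sums shifts this median to 0.17, and every log2 ratio of a well-expressed gene below is to be read against that shift if the sums are taken as equal.

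All but 1 of the 10 genes had a higher FPKM with the USP21 shRNA than with the control, and the highest log2 ratios were those of Fosb and Egr1. The median log2 ratio of the 10 was 0.43. Of these, 1 was at least 2-fold higher, Fosb, and 2 were at least 1.5-fold higher, Fosb and Egr1. Of all genes past the filter 3.40% were 2-fold higher and 10.2% were 1.5-fold higher. None of the 10 was 2-fold or 1.5-fold lower, against 3.00% and 8.84% of all genes, and 9 had a log2 ratio above 0, against 50.5%. The genes were selected on their FPKM values in this same comparison, since earlier results of these libraries were known when they were proposed, so these counts describe them and support nothing further. All 10 passed the filter, but Egr3 did so through the USP21 shRNA library alone, where it is higher. In a bulk culture more cells transcribing a gene and more transcript per cell cannot be told apart.

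The FOS genes encode the AP-1 subunits that must pair with a JUN protein. Fos, the archetypal serum-induced gene, stood at 28.5 FPKM in control cells and 35.96 after USP21 knockdown, a log2 ratio of 0.34. Fosb, whose full-length product activates AP-1 sites and whose short splice form is long-lived, went from 4.07 to 10.6, a 2.60-fold higher FPKM and a log2 ratio of 1.36. It stood 193rd from the top of the 15316 genes, within the highest 1.26%. Fosl1, which encodes FRA1, was low in both libraries, at 0.372 and 0.474, and its log2 ratio of 0.28 rests on about 21 and 22 fragments. Fosb thus had the highest ratio of the FOS genes, resting on about 470 and 1000 fragments.

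Among the JUN genes, which can pair with each other as well as with FOS proteins, Jun stood at 13.6 FPKM in control cells and 19.9 after USP21 knockdown, a log2 ratio of 0.55. Junb, often a weaker activator than Jun, had 30.1 and 34.1, a log2 ratio of 0.18. Atf3 encodes the stress-induced bZIP repressor and had 2.29 and 3.38, a log2 ratio of 0.54. Jun and Atf3 lay near the same place in the distribution of all genes, with 11.1% and 11.3% of genes at or above them, whereas 32.1% of genes were at or above Junb.

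Egr1, a zinc finger factor and a sensitive reporter of ERK activity, stood at 39.5 FPKM in control cells and 75.9 after USP21 knockdown, 1.92 times as high. Its log2 ratio of 0.94 lay just under the 2-fold line, with 3.97% of genes at or above it, and rests on about 5400 and 8700 fragments. The related factors Egr2, known from hindbrain and Schwann cell development, and Egr3 were barely detected. Egr2 had 0.160 and 0.145, a log2 ratio of -0.08, and was the only member lower with the USP21 shRNA, though with equal sums its log2 ratio was 0.022. Egr3 had 0.0781 and 0.157, a ratio of 2.01 in the deposited values, which the added 0.1 brings to a log2 ratio of 0.53. These values stand for about 14 and 11 fragments of Egr2 and about 9.4 and 16 of Egr3, too few to read a difference from at this depth. Ier2, a nuclear immediate early protein, was the most abundant member, at 95.2 and 109, with a log2 ratio of 0.19.

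**Figure D2:**
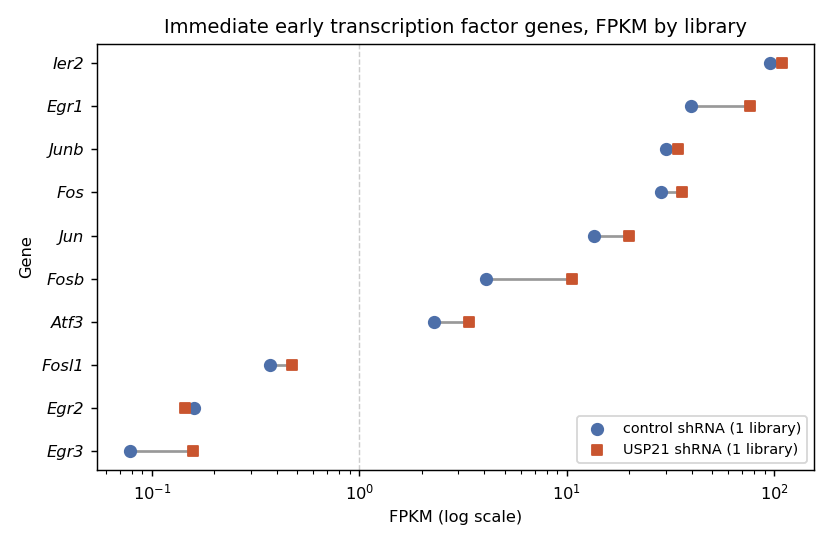
FPKM (x axis, log scale) of the 10 genes in the control shRNA library (circles) and the USP21 shRNA library (squares), 1 library each and so without error bars, ordered by the control value. The widest gaps among genes above an FPKM of 1 (dashed line) are those of Fosb, 4.07 to 10.6, and Egr1, 39.5 to 75.9.

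In the control library the order of levels was Ier2, Egr1, Junb, Fos, Jun, Fosb, Atf3, Fosl1, Egr2 and Egr3. Junb and Fos differed by less than 2 FPKM there and changed places with the USP21 shRNA, and Egr2 and Egr3 did likewise at the bottom. Whether neighbours in this order differ beyond the spread between cultures cannot be said from 1 library. In all, 7 members had an FPKM of at least 1 in both libraries and 3 were under 1 in both. The summed FPKM of the 10 was 214 with the control and 289 with the USP21 shRNA, and Egr1 accounted for 48.3% of the gap.

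Low genes scatter more, so each log2 ratio was also set beside genes of like level. Of 5075 genes with a mean FPKM of 1 to 10, where Fosb and Atf3 lie, 3.51% were 2-fold higher and the quartiles of their log2 ratios were -0.21 and 0.34, with 5% of genes above 0.87. Fosb lay beyond that limit and Atf3 within it. Of 1474 genes at 50 to 200, the range of Egr1 and Ier2, 2.24% were 1.5-fold higher and 5% lay above 0.36, which Egr1 exceeded and Ier2 did not. At 10 to 50 (4686 genes) the limit was 0.56. Jun at 0.55 was just inside it, and Fos and Junb were well inside. Under 1 (3674 genes) it was 1.16, far above the values of Fosl1, Egr2 and Egr3. These limits describe the spread between genes within the 2 libraries and not the error of any gene.

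**Figure D3:**
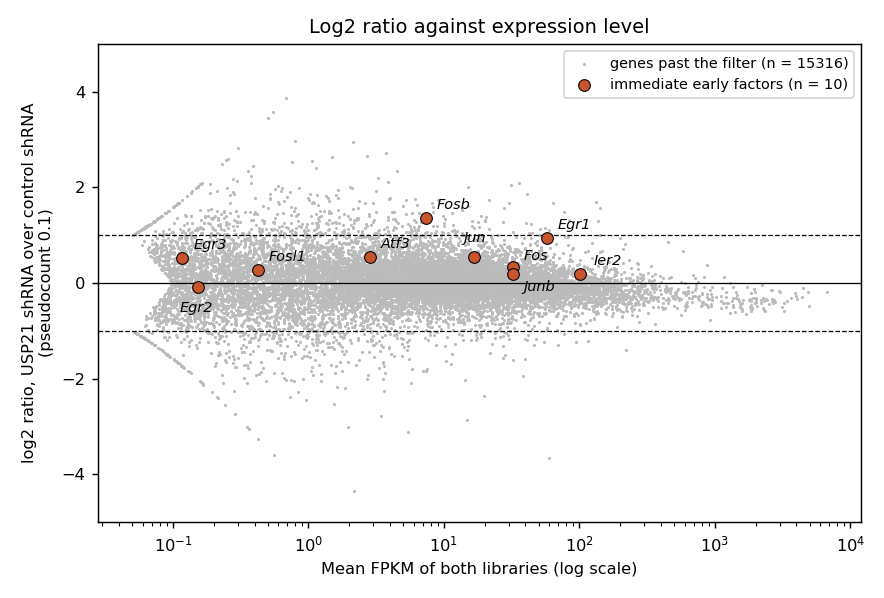
Log2 ratio of USP21 shRNA over control shRNA (y axis, pseudocount 0.1) against mean FPKM (x axis, log scale) for 15316 genes (grey, 3 of them beyond the y axis) and the 10 immediate early factors (orange). Dashed lines mark 2-fold. Fosb lies above the upper line and Egr1 just under it at 0.94, while the other 8 lie between the lines.

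Read as families, the FOS transcripts differed between the libraries in their make-up, with a larger part for Fosb. FPKM is scaled to length, so levels can be summed across genes. The 4 FOS genes (the members plus Fosl2, which encodes FRA2) reached a summed FPKM of 33.5 in control cells and 47.6 after USP21 knockdown. Fosb made up 12.2% of this sum in the control library and 22.2% in the other, while Fos went from 85.1% to 75.5%. The ratio of Fos to Fosb was 6.99 and 3.40. Fosl2 itself was low, at 0.551 and 0.623.

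The 3 JUN genes summed to 91.6 and 109. Jund, the constitutively expressed JUN gene, was the most abundant in both libraries, with 52.3% and 50.5% of the sum. Junb had 32.8% and 31.3%, and Jun 14.8% and 18.2%. Summed JUN transcripts were 2.74 times the summed FOS transcripts in control cells and 2.29 times after USP21 knockdown. In the EGR family Egr1 made up 98.7% and 98.5% of the summed FPKM. The remaining gene, Egr4, had 0.291 and 0.829, a log2 ratio of 1.25.

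**Figure D4:**
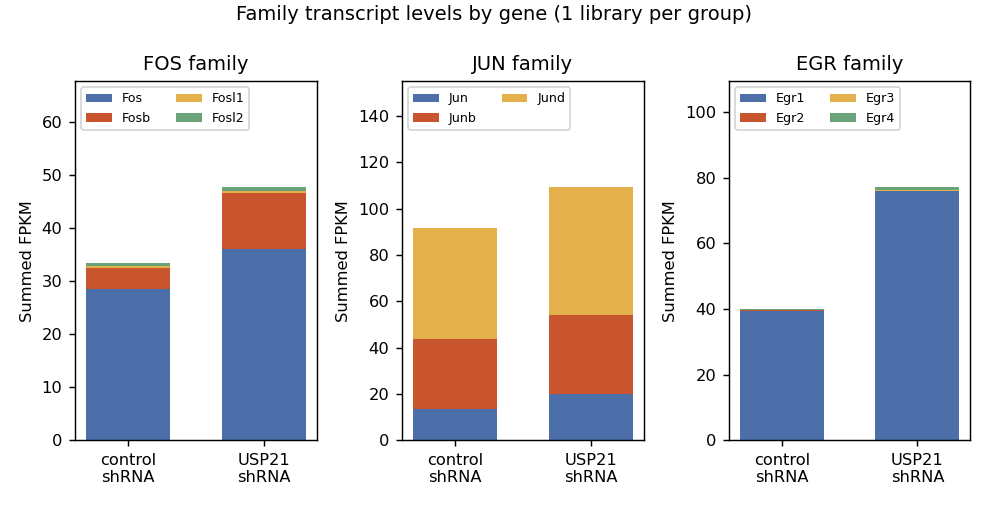
Summed FPKM (y axis, from 0) of the FOS, JUN and EGR families in each library, with the part of each gene in colour (1 library per group, no error bars). The Fosb part of the FOS bar is 12.2% with the control and 22.2% with the USP21 shRNA, and the EGR bars are almost wholly Egr1.

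The other subunits of AP-1 and the partners of the EGR proteins did not follow 1 direction. Of 11 further AP-1 bZIP genes, 6 had a log2 ratio above 0, none was 2-fold higher and 3 were 2-fold lower, with a median of 0.15. With equal sums, with a pseudocount of 1 or with transcript length corrected none (0) was 2-fold lower. The median was 0.30 with equal sums, 0.33 over the 7 genes left by a filter at FPKM 1 and -0.0065 after the length correction. The 2-fold lower genes were Jdp2, a repressor that pairs with JUN (FPKM 11.7 and 5.68, log2 ratio -1.03), and Batf and Batf3, both under 1 FPKM. Mafk, a small MAF protein without an activation domain, had the highest value, 3.39 and 5.57, a log2 ratio of 0.70. The EGR corepressors Nab1 and Nab2, themselves induced by EGR proteins in many cells, had log2 ratios of 0.10 (7.05 and 7.58) and -0.07 (9.60 and 9.12).

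Among 35 other immediate early genes 34 passed the filter, 22 had a log2 ratio above 0, 7 were at least 1.5-fold higher and 1 was at least 1.5-fold lower. Their median was 0.25. With equal sums 3 were 2-fold higher, 10 were 1.5-fold higher and the median was 0.41, where 5.07% and 16.3% of all genes passed these lines. With a pseudocount of 1 the median was 0.15 and 5 were 1.5-fold higher. The values that follow are without rescaling. Plk3, a serum-induced polo-like kinase, had the highest value, 13.96 with the control and 41.6 with the USP21 shRNA, a log2 ratio of 1.57 and the only one past 2-fold. Sgk1, a serum- and glucocorticoid-induced kinase, had the lowest, 152 and 88.4, a log2 ratio of -0.78. The list holds Klf2, Klf4 and Myc, which mESCs also use for self-renewal, and Dusp5 and Dusp6, phosphatases that dampen ERK. Klf2 had 54.6 and 40.02 (log2 ratio -0.45), Klf4 84.96 and 76.5 (-0.15) and Myc 26.7 and 22.8 (-0.22), all lower with the USP21 shRNA. Equal sums shift the median of all genes to 0.17. The log2 ratio of Klf4 is smaller in size than this and that of Myc only slightly larger, so the direction of Klf4 is not firm. Dusp6 had 29.9 and 49.2 (0.72) and Dusp5 3.999 and 7.10 (0.81), both higher.

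The genes that act upstream of the members were closer to the rest of the transcriptome. None of 9 SRF, ETS, MRTF and CREB genes was 1.5-fold higher or lower, and their median was 0.20. With equal sums 2 were 1.5-fold higher and the median was 0.37. The extremes were Mkl2, an actin-regulated SRF cofactor, at 3.81 and 5.70 (0.57), and Ets2 at 17.2 and 13.5 (-0.35). Of 14 MAP kinase pathway genes none was 2-fold higher or lower and none was 1.5-fold lower. Their median was 0.10, and the lowest was Map2k1, which encodes MEK1, at 61.2 and 50.6 (-0.28).

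Genes described as downstream of AP-1 or EGR1 gave values in both directions. Of 11 AP-1 target genes 8 passed the filter, with 2 of them 2-fold higher, 1 2-fold lower and a median of 0.06. This median was 0.24 with equal sums and 0.42 over the 7 genes left by a filter at FPKM 1. Plaur, the urokinase receptor gene, had 10.3 and 23.2 (log2 ratio 1.16), Mmp9, a gelatinase gene, 0.404 and 1.28 (1.45), and Plau, the urokinase gene, 1.29 and 0.168 (-2.37). With a pseudocount of 1 the values of Mmp9 and Plau were under 2-fold. The collagenase and stromelysin genes Mmp3, Mmp10 and Mmp13 were listed at 0 in both libraries. Of 6 EGR1 target genes none was 2-fold changed and the median was -0.17. F3 (8.52 and 11.1, log2 ratio 0.37) was higher, and Tgfb1 (6.29 and 5.39, -0.22), Pdgfa (20.2 and 18.4, -0.13), Pdgfb (1.01 and 0.772, -0.34) and Sphk1 (0.690 and 0.570, -0.24) were lower. With equal sums the median of the EGR1 targets was 0.00082, so its direction is not firm.

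Atf3 is also a target of ATF4 in the integrated stress response. Of 8 genes of that response 6 (8 with equal sums) had a log2 ratio above 0, 2 were 1.5-fold higher and none was 1.5-fold lower, with a median of 0.37. Chac1, an ATF4-induced glutathione-degrading enzyme, had the highest value, 6.27 and 13.2 (1.07), and Ddit4 the lowest, 47.2 and 42.3 (-0.16).

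**Figure D5:**
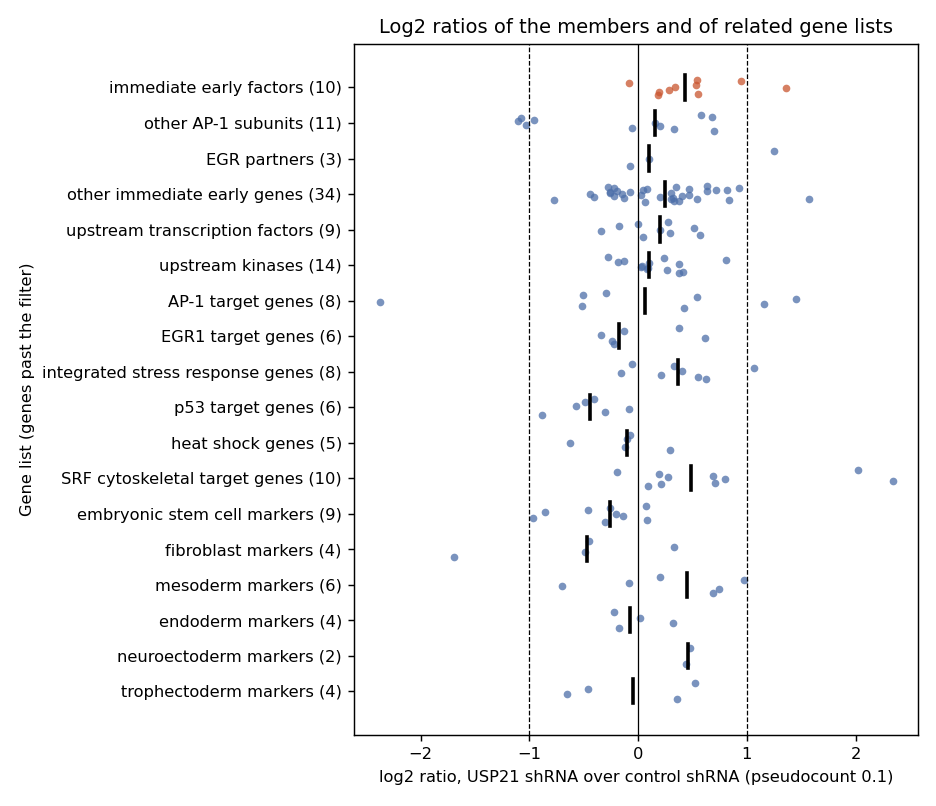
Log2 ratio of USP21 shRNA over control shRNA (x axis, pseudocount 0.1) for each gene past the filter in the 10 immediate early factors (orange) and the related lists (blue), with the number of genes in brackets. Black bars are medians and dashed lines mark 2-fold. The bar of the immediate early factors stands at 0.43 and that of the other immediate early genes at 0.25. Those of the SRF cytoskeletal targets (0.48), neuroectoderm markers (0.46, 2 genes) and mesoderm markers (0.45) lie further right. This order depends on the settings. With the filter at FPKM 1 these medians were 0.49, 0.46 and 0.20, against 0.54 for the immediate early factors. With a pseudocount of 1 the mesoderm median was 0.14, and without a filter the neuroectoderm median was 0.18.

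Markers were read in the same libraries to check the cells. All 9 embryonic stem cell markers were expressed, summing to 2874 FPKM with the control and 2327 with the USP21 shRNA, and 7 of the 9, or 6 with equal sums, were lower with the USP21 shRNA. Their median log2 ratio was -0.26 and the lowest was that of Tfcp2l1, at -0.97. Of the 8 fibroblast markers Lum was at 0 in both libraries, 4 passed the filter, and the list summed to 19.9 and 7.19, most of it Thy1 (17.3 and 5.29), which mouse tissues other than fibroblasts also express. The mesoderm markers summed to 5.33 and 7.25, with 4 of 6 above 0, the neuroectoderm markers to 7.85 and 10.8, with 2 of 5 past the filter and both above 0, the endoderm markers to 20.0 and 21.5, with 2 of 4 above 0, and the trophectoderm markers to 43.3 and 34.5, with 2 of 4 above 0. The part of these shifts in the values of the immediate early genes was not tested.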

How the data were processed

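RNA of E14 mESCs was sequenced in 2 libraries, 1 per shRNA. FPKM values were deposited by the authors, with 1 entry for each symbol in each library. Their processing notes name CASAVA 1.8.2, TopHat2 2.0.14, Cufflinks 2.2.1 and the mm9 build. Annotation, strand setting and options are not given in the sources used here. From the deposited FPKM, log2 ratios were computed with a pseudocount of 0.1, and only genes reaching an FPKM of 0.1 in either library were kept. A gene is counted as changed at 1.5-fold or 2-fold, since 1 library per group allows no test. Of the symbols 94.6% had a transcript in GENCODE M21 (GRCm38), used for length and exons. The deposited build differs, so no coordinates were carried over. Fragment numbers are estimates from the 1-fragment step below an FPKM of 0.06, with no interval given. Promoters came from RefSeq (GRCm38.p6), and the half-site was added after the other motifs had been searched.

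The members and lists were chosen with earlier results of these data known. Named genes are the members, Usp21, the highest and lowest gene of each list among those reaching an FPKM of 1 in either library, and all genes of lists of up to 6. Genes outside this rule (Fosl2, Jund, Batf, Batf3, Dusp5, Dusp6, Klf2, Klf4, Myc, Plaur, Acta2, Ccdc85b and those listed at 0) were chosen with their values known. Not every gene the rule picks is given, and some are not reported here. The alternatives were pseudocounts of 1 and 0.01, equal sums (TPM), a median of 0, upper quartile scaling, a lowess correction for transcript length (span 0.3), and either dropping the filter or raising it to an FPKM of 1. The script was tested on simulated data. Python 3.11.15, numpy 2.4.6, pandas 2.3.3, statsmodels 0.14.6 and matplotlib 3.10.9 were used.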

Additional observations from a re-analysis of the deposited data

How the results depend on the processing

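No paired analysis was possible because each group has 1 library, and leaving out a replicate was not possible either. The number of members above 0 stayed within a factor of 1.5 of 9 under every alternative tried. Rescaling to equal sums gave 2 members at 2-fold or more in place of 1, 5 at 1.5-fold or more in place of 2 and a median of 0.57 in place of 0.43, while the share of all genes above 0 went from 50.5% to 68.0% and the share 1.5-fold higher from 10.2% to 16.3%. Under it Egr1 reached a log2 ratio of 1.12 and Egr2 turned to 0.022. The members' median was 0.26 with a pseudocount of 1 and 0.54 with the filter at FPKM 1, which keeps 7 of the 10. Of the related lists, markers not counted, 11 genes were changed 2-fold, and 3 with a pseudocount of 1, which left out Batf, Batf3, Jdp2, Egr4, Mmp9, Plau, Chac1 and Acta2. Fosb ranged from 1.19 to 1.53 and Egr1 from 0.86 to 1.12 over 6 alternatives, Egr3 from 0.10 to 0.92, set by the pseudocount. With equal sums the medians of the EGR1 targets (0.00082), heat shock genes (0.056), endoderm markers (0.093) and trophectoderm markers (0.12) turned positive, as did that of the endoderm markers without a filter (0.020). The length correction turned the median of the other AP-1 subunits to -0.0065. Of 242 alternative values in all, 7 changed sign, 1 crossed the 2-fold line and 34 were medians or counts that moved. A median was counted as moved at over 0.1 on the log2 scale and a count at over 1.5 times. Single-gene values were not counted in this way, and several shifted by over 0.1, such as Fos from 0.34 to 0.51 with equal sums. Depth limits Fosl1, Egr2 and Egr3, each resting on 22 fragments or fewer.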

Other observations

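Other stress-linked and SRF-linked genes are given here as values from the same libraries (1 per group, no test). All 6 p53 target genes, or 5 with equal sums, were lower with the USP21 shRNA, with a median log2 ratio of -0.45, and 1 was at least 1.5-fold lower. Trp53inp1, a p53-induced regulator of autophagy and cell death, had 60.1 with the control and 32.4 with the USP21 shRNA (log2 ratio -0.89). Cdkn1a, the p21 gene, had 52.0 and 35.0 (-0.57) and Ccng1, the cyclin G1 gene, 168 and 119 (-0.49). Bbc3 (10.4 and 7.86, -0.40), Phlda3 (65.3 and 53.01, -0.30) and Mdm2 (68.1 and 64.2, -0.09) were nearer to 0. Among 5 heat shock genes 1, or 4 with equal sums, was above 0 and none was 1.5-fold higher, with a median of -0.11. Hspa1b, an inducible HSP70 gene, had 4.999 and 3.20 (-0.63) and Hsph1 had 44.5 and 54.5 (0.29).

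Of 10 cytoskeletal genes controlled by SRF, the factor that also binds the CArG boxes of immediate early genes, 9 had a log2 ratio above 0, 5 were at least 1.5-fold higher and 2 were at least 2-fold higher, with a median of 0.48. The shares of all genes past the filter were 50.5%, 10.2% and 3.40%. Tagln, which encodes an actin-bundling protein of smooth muscle, had 1.41 and 7.54 (2.34) and Acta2, the smooth muscle actin gene, 0.177 and 1.02 (2.02). Actb, the abundant cytoplasmic actin gene, had 2096 and 1828 (-0.20). Tagln and Acta2 were low in the control library, and the pseudocount of 1 brought the median of the list to 0.25.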
